A study of Citrus sinensis with 4 samples.

Results

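At 70 days after full bloom, endocarp RNA of the sweet orange cultivar Dahongtiancheng was compared with that of Bingtangcheng, with 1 library a side, or 2 of the 4 libraries of the series. The other 2 libraries come from the same cultivars at 50 days. The 2 libraries were taken by their labels, and every gene of the tables was used. The labels name Citrus sinensis L. Osbeck as the species and fruit as the source, and do not say how many fruits or trees went into a library. Dahongtiancheng is grown as the more acid and Bingtangcheng as the low-acid, sweet cultivar, which is background here, since acidity was not analysed. At 70 days the Dahongtiancheng table summed to 16192148 fragments and the Bingtangcheng table to 16445383, so a single fragment was worth 0.0666 and 0.0668 CPM (a count scaled to a common library size with TMM factors). With 1 library in each group no p-value can be given, and a difference between the cultivars cannot be told apart from a difference between these particular fruits or library preparations.

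In citrus fruit the endocarp gives rise to the juice sacs, whose cells enlarge by filling a central vacuole. Acid is held there mainly as citrate, which enters the vacuole along a gradient set up by proton pumps of the vacuolar membrane, and sugars are stored in the same compartment. Sweet orange cultivars are propagated by grafting, and most are thought to have arisen from one another by bud mutation, so their genomes are close to identical. The tables pair gene identifiers with positions and lengths and with no gene names, and none of the identifiers could be matched to the reference table used here. Genes are therefore named by identifier without a role, the sets of genes for citrate, sugar and proton transport could not be drawn up from these files, and the tissue could not be checked against markers of endocarp, peel or seed.

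More genes were higher than lower in Dahongtiancheng, and the excess was largest among the largest differences. Of 15895 genes expressed at 70 days, 1146 were higher and 896 lower in Dahongtiancheng, which is 7.21% and 5.64% of the expressed genes and 12.8% in both directions together. A gene counted as expressed with at least 10 fragments and 1 CPM in 1 of the 2 libraries. It was called where the ratio, computed with a prior count of 2, was at least 2-fold and a 99% counting interval left out a ratio of 1. The higher genes had a median log2 ratio of 1.78 and the lower genes of -1.40, while the median over all expressed genes was -0.02 and the middle 50% of them lay between -0.34 and 0.33. The ratio was under 1.5-fold for 70.7% of the expressed genes. Between 2-fold and 4-fold there were 647 higher and 682 lower genes. At 4-fold or more there were 499 higher and 214 lower genes, 3.14% and 1.35% of those expressed, and at 16-fold or more 140 higher and 29 lower. With the median log2 ratio of each of 20 bins of level set to 0, the 2-fold rule gave 1071 higher and 1007 lower genes and a 4-fold rule 443 and 283.

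**Figure D1:**
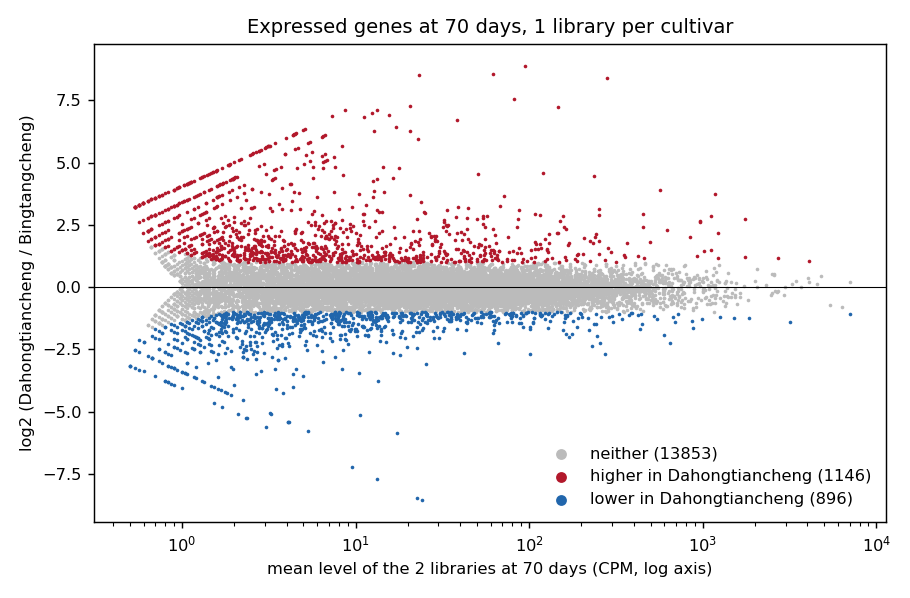
Each point is 1 of the 15895 expressed genes, placed by its mean level at 70 days (CPM, log axis) and its log2 ratio of Dahongtiancheng over Bingtangcheng, and coloured by whether it was called. Above 16-fold (a log2 ratio of 4) lie 140 genes on the upper side against 29 on the lower side, and the diagonal streaks at the left are genes with 0 or a few fragments in 1 library.

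The genes with the most certain large differences were chosen by the bound of the 95% counting interval nearest to 1. At 70 days Cs2g08770 (chromosome 2, 5783292 to 5809772, plus strand) had 2817 fragments in Dahongtiancheng, against 4 in Bingtangcheng, while at 50 days it had 1639 in Dahongtiancheng, against 1398 in Bingtangcheng. Its level was 702-fold higher in Dahongtiancheng at 70 days (95% counting interval 274 to 2578) and the ratio was 1.05 at 50 days (0.978 to 1.13). Bingtangcheng at 70 days is the library that stands low for this gene, and the other 3 lie between 89.7 and 188 CPM.

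At 70 days Cs8g19320 (chromosome 8, 21596984 to 21602088, minus strand) had 8407 fragments in Dahongtiancheng, against 23 in Bingtangcheng, while at 50 days it had 4877 in Dahongtiancheng, against 3443 in Bingtangcheng. Its level was 364-fold higher in Dahongtiancheng at 70 days (243 to 575) and 1.27-fold higher at 50 days (1.22 to 1.33). The same single library is low, although the gene reached 221 CPM in Bingtangcheng at 50 days.

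Among the genes lower in Dahongtiancheng, orange1.1t03258 (unplaced sequence, 50087571 to 50090903, minus strand) had, at 70 days, 0 fragments in Dahongtiancheng, against 720 in Bingtangcheng. Earlier, at 50 days, there were 313 fragments in Dahongtiancheng, against 148 in Bingtangcheng. With 3 fragments put in place of 0, the 70-day level of Dahongtiancheng was 241-fold lower than that of Bingtangcheng. The 95% counting interval of this fold began at 195, so 241 is not a lower bound. Here the 70-day Dahongtiancheng library stands apart from all 3 others.

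At 70 days the gene orange1.1t02290 (unplaced sequence, 34428020 to 34428436, minus strand) had 0 fragments in Dahongtiancheng, against 672 in Bingtangcheng, while at 50 days it had 0 in Dahongtiancheng, against 355 in Bingtangcheng. With the same substitute for 0, the 70-day level of Dahongtiancheng was 225-fold lower than that of Bingtangcheng. The interval of this fold began at 182, so 225 is not a lower bound. The gene was undetected in both Dahongtiancheng libraries, so for this gene the libraries divide by cultivar at either stage.

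A few abundant genes made up part of the difference in RNA held by the called genes. The 1146 higher genes together took up 6.63% of the fragments of Dahongtiancheng at 70 days (exact 95% binomial interval 6.62 to 6.65) and 1.95% of those of Bingtangcheng (1.94 to 1.95). The 896 lower genes took up 2.38% in Dahongtiancheng (2.37 to 2.39) and 5.81% in Bingtangcheng (5.80 to 5.82). The 10 higher genes with the largest CPM differences held 2.40% of the Dahongtiancheng fragments and 0.712% of the Bingtangcheng fragments. The 10 lower ones held 1.02% in Dahongtiancheng and 2.42% in Bingtangcheng. All these lists were chosen by the difference between these same libraries, so the direction of each contrast follows from the choice. The intervals cover counting error alone.

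By the difference in CPM, a rule that favours long and abundant genes, Cs9g19220 (chromosome 9, 18215576 to 18218555, minus strand) came first among the higher genes. It had 5537 CPM in Dahongtiancheng and 2657 CPM in Bingtangcheng at 70 days, from 83110 and 39756 fragments, and 204 CPM in Dahongtiancheng and 122 CPM in Bingtangcheng at 50 days. The ratio of the cultivars was 2.08 at 70 days (2.06 to 2.11) and 1.67 at 50 days (1.57 to 1.76). Both 70-day libraries are far above both 50-day libraries, and Dahongtiancheng is above Bingtangcheng at either stage.

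At 70 days Cs9g14690 (chromosome 9, 14093913 to 14095637, minus strand) had 3026 CPM in Dahongtiancheng, against 455 CPM in Bingtangcheng, while at 50 days it had 135 CPM in Dahongtiancheng, against 167 CPM in Bingtangcheng. It was 6.64-fold higher in Dahongtiancheng at 70 days (6.48 to 6.82), whereas the 50-day level of Dahongtiancheng was 0.805 times that of Bingtangcheng (0.761 to 0.852). Per kilobase of gene model the 70-day level of Cs9g14690 in Dahongtiancheng, 2299 CPM per kb, was close to that of Cs9g19220, 2153 CPM per kb. In Bingtangcheng at 70 days they stood at 346 and 1033 CPM per kb for Cs9g14690 and Cs9g19220, so the order of these genes differed between the cultivars.

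On the other side, Cs1g01700 (chromosome 1, 840737 to 843924, minus strand) had, at 70 days, 4498 CPM in Dahongtiancheng, against 9540 CPM in Bingtangcheng, while at 50 days it had 5927 CPM in Dahongtiancheng, against 3279 CPM in Bingtangcheng. Its level was 2.12-fold lower in Dahongtiancheng at 70 days (2.10 to 2.14). At 50 days it was 1.81-fold higher in Dahongtiancheng (1.79 to 1.83), a difference that did not reach the 2-fold rule.

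At 70 days Cs4g06630 (chromosome 4, 4121608 to 4124777, plus strand) had 1751 CPM in Dahongtiancheng, against 4579 CPM in Bingtangcheng, while at 50 days it had 2829 CPM in Dahongtiancheng, against 2511 CPM in Bingtangcheng. It was 2.62-fold lower in Dahongtiancheng at 70 days (2.58 to 2.65) and 1.13-fold higher at 50 days (1.11 to 1.14). In both of these genes the 70-day Bingtangcheng library is the highest of the 4 and the 70-day Dahongtiancheng library lies below the 50-day library of its own cultivar.

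Among the genes with the most RNA per length the cultivars shared most members. The 100 genes with the highest CPM per kb in Dahongtiancheng and in Bingtangcheng at 70 days had 75 in common. Of the 125 genes in either list, 16 were higher and 10 lower in Dahongtiancheng, which is 20.8% against 12.8% of all expressed genes, and 99 were within 2-fold. Genes that enter only 1 of the lists differ between the libraries in part by that choice.

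Cs1g16150 was chosen as a gene of interest in this series, with its values known. At 70 days it (chromosome 1, 19246312 to 19254259, plus strand) had 24911 fragments in Dahongtiancheng, against 3955 in Bingtangcheng, or 1659.6 CPM and 264 CPM. At 50 days it had 213 CPM in Dahongtiancheng and 16.05 CPM in Bingtangcheng. The ratio of the cultivars was 6.28 at 70 days (6.07 to 6.49) and 13.3 at 50 days (11.7 to 15.2), so it was higher in Dahongtiancheng at either stage. The 264 CPM of Bingtangcheng at 70 days is near the 213 CPM that Dahongtiancheng had at 50 days.

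**Figure D2:**
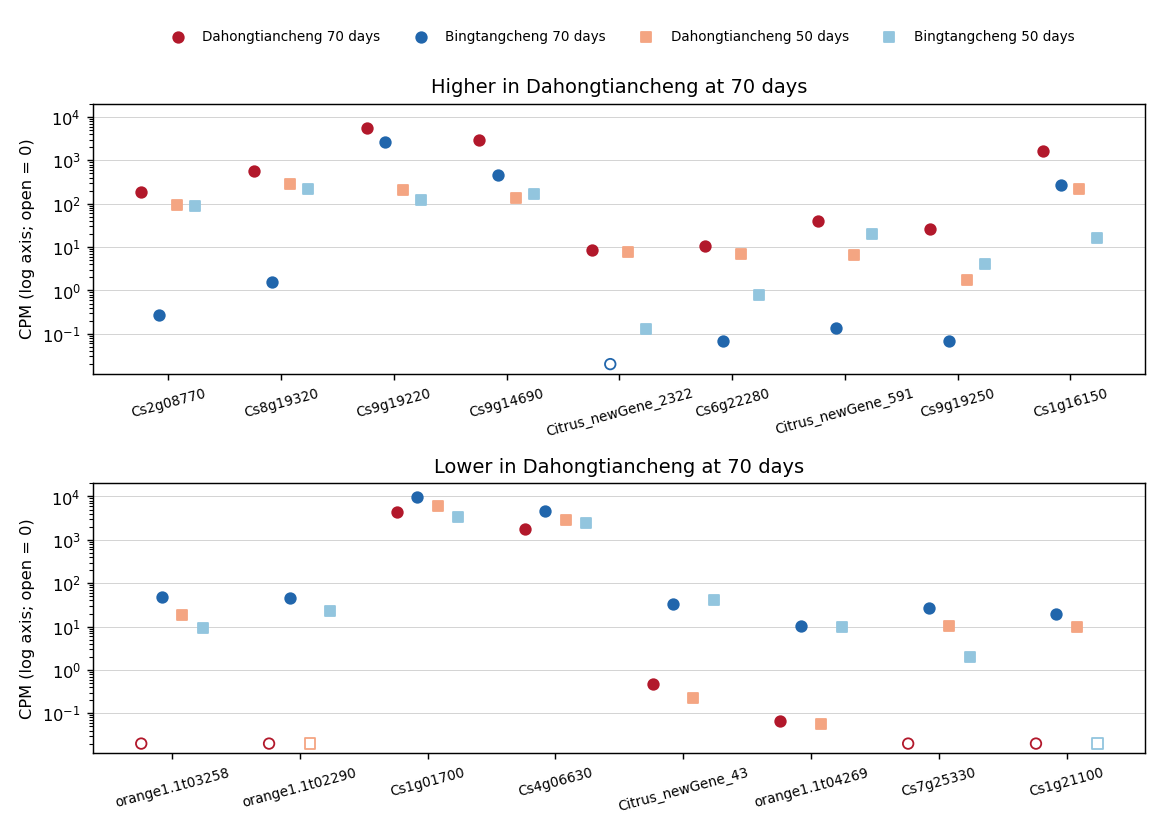
Level in CPM (log axis) of the named genes in each of the 4 libraries, with genes higher in Dahongtiancheng at 70 days above and genes lower below, circles for 70 days and squares for 50 days, and open symbols at the bottom for a count of 0. The patterns differ between genes, from 1 low library (Cs2g08770, with 0.267 CPM in Bingtangcheng at 70 days) to a division by cultivar at both stages (Citrus_newGene_43).

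A number of genes were detected in the 70-day library of 1 cultivar and had no fragment in the other. In Dahongtiancheng 80 genes had at least 20 fragments with 0 in Bingtangcheng, 0.503% of the expressed genes. In Bingtangcheng 18 genes had at least 20 fragments with 0 in Dahongtiancheng, 0.113%. With up to 2 fragments allowed in the low library the numbers were 181 and 61. At 50 days 32 genes were detected in this way in Dahongtiancheng alone and 15 in Bingtangcheng alone. The 80 genes had between 20 and 700 fragments in Dahongtiancheng, with a median of 43.5, and the 18 genes between 21 and 720 in Bingtangcheng, with a median of 48.5.

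Most of these genes had at least 1 fragment at 50 days in the cultivar that lacked them at 70 days. That is the lowest count that can be seen, and no share over all expressed genes is given beside it. Of the 80 genes without a fragment in 70-day Bingtangcheng, 58 had at least 1 fragment in Bingtangcheng at 50 days, and 14 had at least 20 in both 50-day libraries. Of the same 80 genes, 13 had no fragment in either 50-day library. The division was already present at 50 days, with at least 20 fragments in Dahongtiancheng and at most 2 in Bingtangcheng, for 10 of the 80. It was the reverse at 50 days for 0 of the 80. Of the 18 genes without a fragment in 70-day Dahongtiancheng, 13 had at least 1 fragment in Dahongtiancheng at 50 days. At 50 days 6 of the 18 had at least 20 fragments in Bingtangcheng and at most 2 in Dahongtiancheng, and 3 had the reverse. Models named Citrus_newGene made up 16 of the 80 genes (20%) and 3 of the 18 (16.7%), against 2.81% of all expressed genes. These shares were not matched for level. Whether such models were built from these same libraries, which could favour genes seen in 1 library, is not stated.

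Most genes called at 70 days were not called at 50 days. A gene not expressed at 50 days could not be called there. Of the 1146 higher genes 919 were expressed at 50 days, and of the 896 lower genes 825. The 50-day libraries gave 440 higher and 585 lower genes, 2.73% and 3.62% of the 16139 genes expressed there. The 2 comparisons share no library. Of the 1146 genes higher at 70 days, 923 were not called at 50 days, 122 were higher and 101 were lower. The 122 genes are 10.6% of those higher at 70 days and 27.7% of those higher at 50 days. The 101 genes are 8.81% of those higher at 70 days and 17.3% of those lower at 50 days. Of the 896 genes lower at 70 days, 746 were not called at 50 days, 97 were lower (10.8% of this list and 16.6% of those lower at 50 days) and 53 were higher (5.92% and 12.05% of those higher at 50 days). Among the genes expressed at both stages, the 919 that were higher at 70 days had a median log2 ratio at 50 days of 0.0023, with the middle 50% between -0.53 and 0.47. The 825 that were lower at 70 days had a median of -0.06 at 50 days, with the middle 50% between -0.50 and 0.23.

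**Figure D3:**
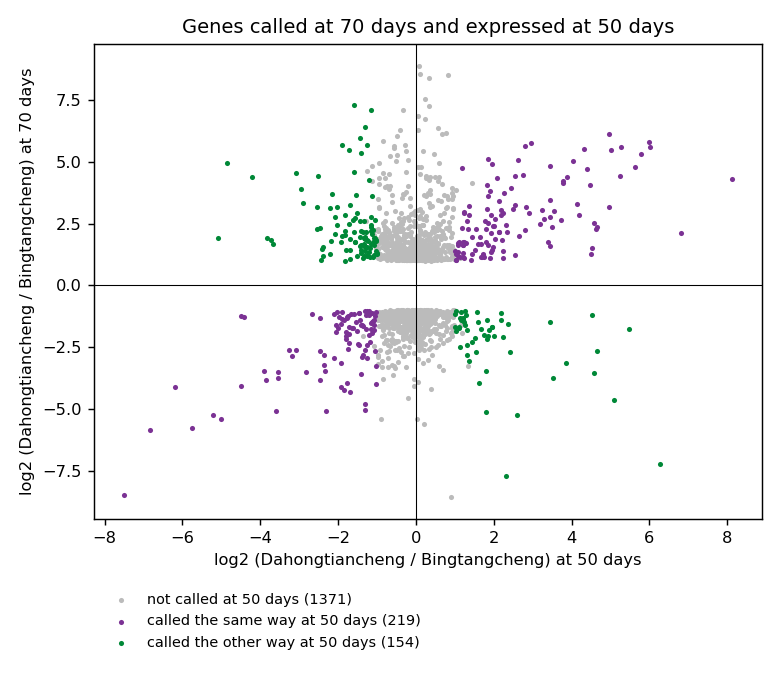
Log2 ratio of Dahongtiancheng over Bingtangcheng at 70 days (vertical) against that at 50 days (horizontal), for genes called at 70 days and expressed at 50 days. Of these, 1371 were not called at 50 days, 219 were called the same way and 154 the other way, and the empty band in the middle is the 2-fold rule at 70 days.

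Among genes called the same way at both stages, Citrus_newGene_2322 (unplaced sequence, 54358193 to 54366170, minus strand) was higher in Dahongtiancheng. At 70 days it had 132 fragments in Dahongtiancheng, against 0 in Bingtangcheng, while at 50 days it had 136 in Dahongtiancheng, against 2 in Bingtangcheng. With a fixed count put in place of 0, it was 43.9-fold higher in Dahongtiancheng at 70 days (interval from 35.2). The fold of 43.9 is not a lower bound. At 50 days the gene was 61.0-fold higher in Dahongtiancheng (16.6 to 509). Its level barely moved with the stage in Dahongtiancheng, where it was 8.79 CPM at 70 days and 7.83 CPM at 50 days.

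At 70 days Cs6g22280 (chromosome 6, 21086026 to 21087111, plus strand) had 158 fragments in Dahongtiancheng, against 1 in Bingtangcheng, while at 50 days it had 118 in Dahongtiancheng, against 12 in Bingtangcheng. It was 157-fold higher in Dahongtiancheng at 70 days (27.9 to 6259) and 8.82-fold higher at 50 days (4.86 to 17.6). The wide 70-day interval comes from the single fragment in Bingtangcheng.

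In the opposite direction, Citrus_newGene_43 (chromosome 1, 20319063 to 20324426, plus strand) had, at 70 days, 7 fragments in Dahongtiancheng, against 509 in Bingtangcheng, while at 50 days it had 4 in Dahongtiancheng, against 630 in Bingtangcheng. It was 73.0-fold lower in Dahongtiancheng at 70 days (35.2 to 182). At 70 days the gene orange1.1t04269 (unplaced sequence, 66861181 to 66863079, plus strand) had 1 fragment in Dahongtiancheng, against 158 in Bingtangcheng, while at 50 days it had 1 in Dahongtiancheng, against 153 in Bingtangcheng. It was 159-fold lower in Dahongtiancheng at 70 days (28.0 to 6300.5) and 171-fold lower at 50 days (30.2 to 6782). For both genes the libraries divide by cultivar, and the stages of a cultivar are close.

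Other genes were called in opposite directions at 70 and at 50 days. At 70 days Citrus_newGene_591 (chromosome 3, 18959265 to 18960075, plus strand) had 613 fragments in Dahongtiancheng, against 2 in Bingtangcheng, while at 50 days it had 112 in Dahongtiancheng, against 305 in Bingtangcheng. It was 305-fold higher in Dahongtiancheng at 70 days (84.2 to 2528) and 3.04-fold lower at 50 days (2.44 to 3.81). At 70 days Cs9g19250 (chromosome 9, 18234749 to 18237287, minus strand) had 397 fragments in Dahongtiancheng, against 1 in Bingtangcheng, while at 50 days it had 31 in Dahongtiancheng, against 64 in Bingtangcheng. It was 396-fold higher in Dahongtiancheng at 70 days (70.6 to 15668) and 2.30-fold lower at 50 days (1.48 to 3.66). In both genes Bingtangcheng at 70 days is the lowest and Dahongtiancheng at 70 days the highest of the 4 libraries.

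At 70 days Cs7g25330 (chromosome 7, 25670607 to 25671884, plus strand) had 0 fragments in Dahongtiancheng, against 398 in Bingtangcheng, while at 50 days it had 181 in Dahongtiancheng, against 31 in Bingtangcheng. With a fixed count put in place of 0, it was 133-fold lower in Dahongtiancheng at 70 days (interval from 108). At 50 days it was 5.24-fold higher in Dahongtiancheng (3.56 to 7.93). At 70 days Cs1g21100 (chromosome 1, 24050431 to 24052317, minus strand) had 0 fragments in Dahongtiancheng, against 285 in Bingtangcheng, while at 50 days it had 169 in Dahongtiancheng, against 0 in Bingtangcheng. With the same substitute for 0, it was 95.3-fold lower in Dahongtiancheng at 70 days (interval from 77.0). At 50 days it was 50.5-fold higher in Dahongtiancheng (interval from 40.6). None of the folds 133, 95.3 and 50.5 is a lower bound. Detection of Cs1g21100 thus changed sides between the stages.

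The 4 libraries placed side by side show which of the 70-day libraries departed from the 50-day levels. Levels at 50 days did not enter the choice of the called genes, but the change between stages shares the 70-day library with the comparison of the cultivars, and genes chosen for 70-day extremes tend to have their 50-day levels in between. The 1146 higher genes had a median level of 6.66 CPM in Dahongtiancheng and 1.504 CPM in Bingtangcheng at 70 days, against 3.45 CPM in Dahongtiancheng and 3.18 CPM in Bingtangcheng at 50 days. The 896 lower genes had a median of 2.60 CPM in Dahongtiancheng and 7.92 CPM in Bingtangcheng at 70 days, against 8.87 CPM in Dahongtiancheng and 10.05 CPM in Bingtangcheng at 50 days. Over all expressed genes the medians were 22.8 and 22.5 CPM at 70 days and 23.9 and 24.0 CPM at 50 days for Dahongtiancheng and Bingtangcheng.

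For the higher genes, both 70-day libraries lay away from the 50-day levels, in opposite directions. Their median log2 ratio of 70 over 50 days was 1.098 in Dahongtiancheng and -0.69 in Bingtangcheng. For the lower genes the departure was mainly in Dahongtiancheng, with a median of -1.24 in that cultivar and 0.095 in Bingtangcheng. All expressed genes had medians of 0.03 in Dahongtiancheng and 0.02 in Bingtangcheng.

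The same was counted gene by gene, taking a 70-day library as apart where it lay at least 2-fold beyond both 50-day libraries on the side of its difference. Among the higher genes, Dahongtiancheng alone was apart for 460, Bingtangcheng alone for 303, both for 50 and neither for 333. Among the lower genes, Dahongtiancheng alone was apart for 454, Bingtangcheng alone for 170, both for 5 and neither for 267. These counts are descriptions of the same values that called the genes.

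**Figure D4:**
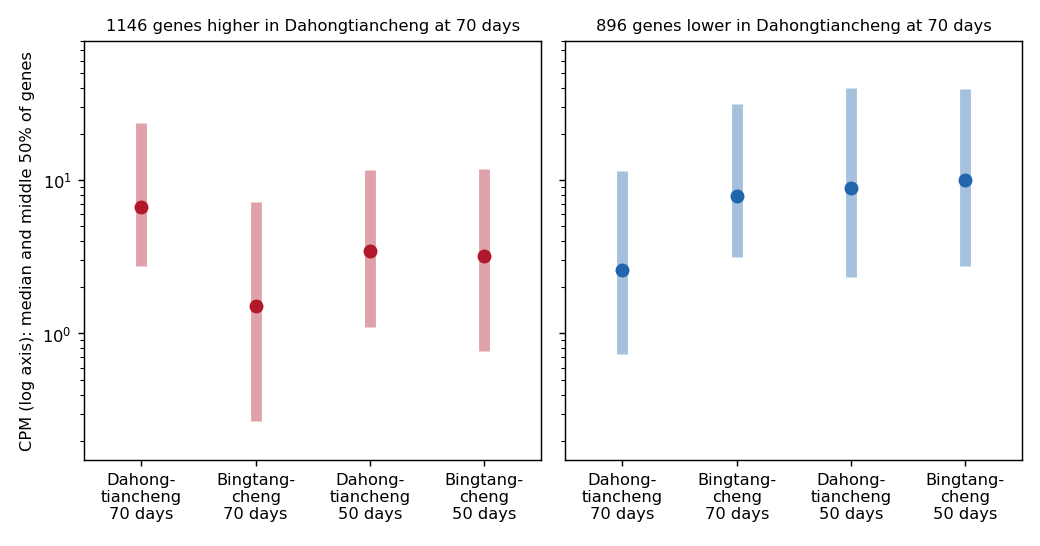
Median level (points) and the middle 50% of genes (bars) in CPM, on a log axis, of the 1146 genes higher (left) and the 896 genes lower (right) in Dahongtiancheng at 70 days, in each of the 4 libraries. On the left the 70-day medians of 6.66 and 1.504 CPM lie on either side of the 50-day medians, and on the right the 70-day Dahongtiancheng median of 2.60 CPM lies below the other 3.

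Called genes were frequent at low levels and rare in the middle range. Under 5 CPM (mean of the 2 libraries), 615 of 3393 expressed genes were higher and 436 lower, or 31.0% called. In this class the excess turned to the other side, with 527 higher and 567 lower, once the median of each level bin was set to 0. The share was smaller in the classes above. Between 5 and 50 CPM, 391 of 7671 were higher and 329 lower, 9.39%. Between 50 and 500 CPM, 124 of 4542 were higher and 116 lower, 5.28%. Over 500 CPM, where counting error is smallest, 16 of 289 were higher and 15 lower, 10.7%. How many low genes would pass the same rule between 2 libraries of 1 cultivar and stage is unknown, since none was replicated. The excess of higher genes at 4-fold or more was present in every class, with 326 higher and 169 lower under 5 CPM, 129 and 38 between 5 and 50, 35 and 6 between 50 and 500, and 9 and 1 above. With level bins centred in this way it was also present in each, and under 5 CPM it shrank to 268 higher and 239 lower.

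Short gene models were called more often, with more higher than lower genes. The expressed genes were divided into 4 equal groups by the length given in the tables. In the shortest group, of 131 to 1057 bases, 475 of 3974 genes were higher and 262 lower, 18.5% called. In the next group 306 were higher and 268 lower, and in the one after that 228 were higher and 204 lower. In the longest group, of 2437 to 16782 bases, 137 of 3974 were higher and 162 lower, 7.52% called, so that the excess lay on the other side. With level bins centred the shortest group had 435 higher and 325 lower genes and the longest 133 and 169, while the excess in the 2 groups between turned, to 292 and 293 and to 211 and 220. At 70 days the median log2 ratio was 0.08 in the shortest and -0.06 in the longest group. The same medians at 50 days were 0.06 and -0.02. Low level and short length go together, and among the 1432 shortest genes under 5 CPM 286 were higher and 153 lower, against 53 and 67 of the 428 longest genes under 5 CPM. Between 50 and 500 CPM the shortest group had 48 higher and 21 lower genes and the longest had 16 and 25. The part of RNA integrity or fragment size in this relation was not tested.

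**Figure D5:**
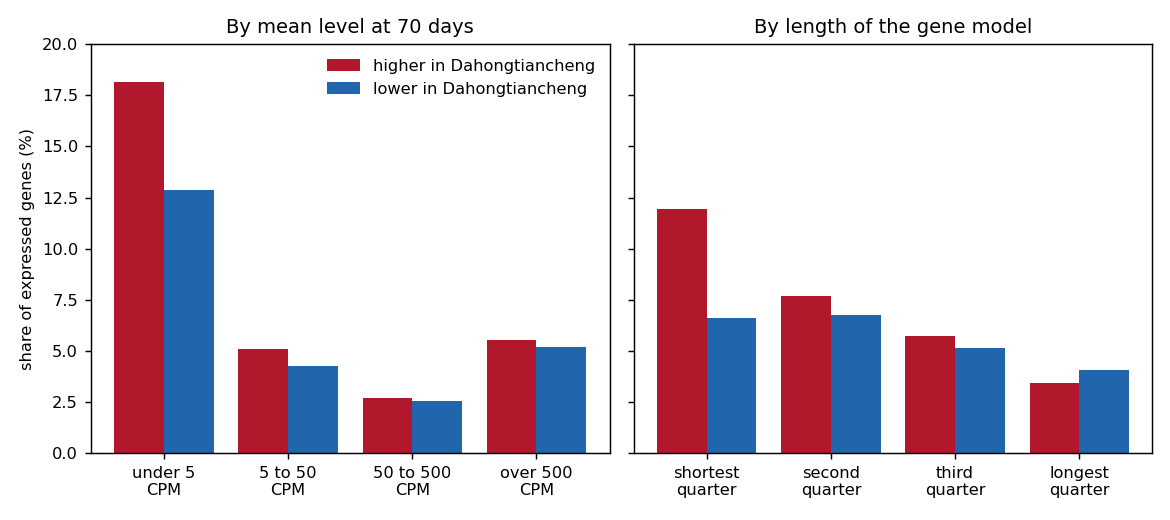
Share of expressed genes (%) that were higher (red) or lower (blue) in Dahongtiancheng at 70 days, by mean level (left) and by length of the gene model (right). The share called is largest under 5 CPM, at 31.0%, and the share that was higher declines from the shortest to the longest models.

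Gene models of the 3 identifier forms differed in how often they were called. Of the 446 expressed models named Citrus_newGene, which the tables list after a second header line, 94 were higher and 37 lower, 29.4% against 12.8% overall. Of the 13301 models of the form Cs, 889 were higher and 731 lower (12.2%), and of the 2148 of the form orange1.1t, 163 were higher and 128 lower (13.5%). With level bins centred the forms had 87 and 46, 831 and 810, and 153 and 151 higher and lower genes in the same order. The Citrus_newGene models had a median log2 ratio of 0.21 at 70 days and the Cs models of -0.02. The forms were not matched for level, and 31.0% of all expressed genes under 5 CPM were called.

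Called genes were spread over all chromosomes. The share called on the 9 numbered chromosomes lay between 11.1% on chromosome 7 and 14.2% on chromosome 9, with 14.1% for unplaced sequence. By the main rule higher genes outnumbered lower ones on each of them, by the least on chromosome 6 (80 and 74) and in the largest proportion on chromosome 8 (86 and 51). With level bins centred, lower genes outnumbered higher ones on chromosome 5 (136 higher and 153 lower), chromosome 6 (75 and 85) and chromosome 7 (112 and 115), and chromosome 1 was level (108 and 107). Genes of the plus strand and of the minus strand were called at 12.8% and 12.9%.

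Neighbouring genes shared a direction somewhat more often than the background. For 122 of the 1146 higher genes (10.6%) the next expressed gene on the same sequence was also higher, against a background of 7.21%, and for 52 (4.54%) it was lower. For 64 of 895 lower genes with a next gene (7.15%) it was also lower, against a background of 5.64%, and for another 64 it was higher. Nearly all called genes stood alone or in pairs, with 85 pairs and 17 runs of 3 among the higher genes and 54 pairs and 5 runs of 3 among the lower ones. Neighbours can be near-identical copies that share reads, whose part in this was not tested.

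The longest run held 4 genes on chromosome 2, between positions 1742600 and 1765134, all higher in Dahongtiancheng. At 70 days Cs2g03750 had 94 fragments in Dahongtiancheng, against 0 in Bingtangcheng, 31.2-fold higher when computed against 3 fragments (interval from 24.9). Cs2g03770 had 89 and 27 fragments, and its level was 3.29-fold higher (2.12 to 5.26). Cs2g03780 had 5457 and 1569 fragments and was 3.47-fold higher (3.28 to 3.67). Citrus_newGene_344, just beyond it, had 533 and 151 fragments and was 3.52-fold higher (2.93 to 4.24). At 50 days all 4 were at a lower level in Dahongtiancheng than in Bingtangcheng, with log2 ratios of -0.57, -0.55, -0.90 and -1.02 in the same order, of which only the last met the size rule. Cs2g03780 and Citrus_newGene_344 had nearly equal ratios at either stage. They lie on the minus strand, as does Cs2g03750. Cs2g03770 lies on the plus strand, and its 70-day interval covers the ratios of Cs2g03780 and Citrus_newGene_344.

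Some genes overlapped others on the map. Another expressed gene overlapped 8.62% of the called genes and 10.8% of all expressed genes. In 12 overlapping pairs both genes were called the same way and in 5 pairs opposite ways, 3 of the 5 on opposite strands. Reads of such pairs cannot be assigned with certainty, because no label or header states the strand setting of the counting.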

How the data were processed

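Per the labels' protocols, endocarps were frozen in liquid nitrogen, RNA was extracted with Trizol, and poly(A) mRNA was enriched for Illumina libraries. No aligner, counting tool, genome build, annotation or strand setting is given in the sources used here, so reads of near-identical copies and of overlapping genes are uncertain. Per the file headers the deposited tables hold a raw fragment count, a scaled count and an FPKM value for each of 29036 genes. The raw count was used throughout. The scaled count is a normalized signal made by the authors, equal to the raw count times 1 factor for 92.6% of detected genes in Dahongtiancheng and 92.0% in Bingtangcheng at 70 days (within 1%), and was used for this check alone. The deposited FPKM served as an alternative. A header line that recurs 1 time in each file was dropped. Of the identifiers, 0 matched the 29331 genes of the RefSeq table for assembly DVS_A1.0, and no sequence was shown.

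TMM factors (edgeR 4.0.16, R 4.3.3) over the 4 libraries were 0.927 for Dahongtiancheng and 0.910 for Bingtangcheng at 70 days. Log2 ratios used a prior count of 2. Folds are ratios of CPM with a 95% exact conditional counting interval (SciPy 1.17.1), which covers counting error only, since fragments carry no molecular identifiers. Against 0 fragments the fold was computed against 3, without the error of the other count. Such a fold is not a lower bound, and the counting interval given beside it begins lower. Named genes, with no descriptions to go by, were 2 per direction by interval bound, by CPM difference, and by bound among genes called the same and the other way at 50 days, runs of 4 or more neighbours, and Cs1g16150, taken with its values known. Groupings by length, with their recomputed values and those at 4-fold by level, by detection in 1 library, by overlap and by apartness from the 50-day libraries were chosen after the data were seen, and all genes, groups and rules were chosen with earlier results of these data known.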

Additional observations from a re-analysis of the deposited data

Results flagged for a closer look

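The named genes that met the size rule in opposite directions at the 2 stages are listed here, since the cultivar difference then differs between 70 and 50 days. Each stage has 1 library per cultivar, and the difference between the stages was not tested. The log2 ratio of Dahongtiancheng over Bingtangcheng at 70 days was 7.30 for Citrus_newGene_591 and 7.10 for Cs9g19250, against -1.58 and -1.15 at 50 days. It was -7.72 for Cs7g25330 and -7.24 for Cs1g21100, against 2.32 and 6.28 at 50 days. For Citrus_newGene_344 it was 1.80 at 70 days and -1.02 at 50 days. The first 4 of these genes were named because of this reversal.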

How the results depend on the processing

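Over all expressed genes, higher genes outnumbered lower ones at 70 days under each of the 11 alternatives run, but not in every class of genes. With level bins centred the excess turned to lower genes under 5 CPM (527 higher and 567 lower), on chromosome 5 (136 and 153), chromosome 6 (75 and 85) and chromosome 7 (112 and 115), and in the middle groups of length (292 and 293, 211 and 220). It turned in no class of level, identifier form, chromosome or length with total fragment counts. The counts moved by more than 1.5 times with a floor of 5 CPM (645 higher and 549 lower), a 4-fold threshold (499 and 214) and a 1.5-fold threshold (2039 and 1959), all by the construction of the rule. Higher genes made up 56.1% of the called ones by the main rule, 51.5% with level bins centred, 51.0% at 1.5-fold, 61.3% with the deposited FPKM (pseudocount 1) and 69.99% at 4-fold. The deposited FPKM summed to 2.42e+06 in Dahongtiancheng and 2.04e+06 in Bingtangcheng at 70 days, so the 2 libraries differ in FPKM scale. Genes called at both stages fell at a 4-fold threshold to 55 higher and 23 lower at both, 15 higher at 70 and lower at 50 days, and 11 the reverse. The other 130 recomputed counts and shares, those that turned included, stayed within 1.5 times of their main value. Recomputed counts by length and at 4-fold by level were added after the data were seen. No named log2 ratio changed sign. Of 105 recomputed named ratios, 11 left their counting interval, each in a gene of many fragments. Apart from changes of the prior count, the largest shift was 0.76, with level bins centred (Citrus_newGene_2322, 6.13 to 5.37). A change of the prior count to 0.5 moved genes at 0 by up to 1.997. No paired analysis was possible because each group has 1 library, and for the same reason no library could be left out. Depth limits the low range, where a gene at 1 CPM has about 15 fragments.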
